A study of Saccharomyces cerevisiae with 12 samples.

Results

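The strain dependence of the yeast response to added lipids was measured as a difference of differences. For each of 9275 yeast probe sets on 12 arrays, the response of EC1118 (log2 signal in lipid-supplied juice minus log2 signal in lipid-free juice) was set against the same response of M25. The value is EC1118 minus M25, so a positive one means a larger rise or a smaller fall in EC1118. Of the 9275 probe sets, 7349 exceeded the array background on at least 3 of the 12 arrays and were tested, and they name 5360 genes. All 12 arrays of the series enter the comparison.

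Both strains are wine yeasts of Saccharomyces cerevisiae. EC1118 is sold commercially and M25 is a wild-type isolate from the culture collection of a university, so each background is a single strain. The 4 groups were EC1118 in FSJ, EC1118 in SJ, M25 in FSJ and M25 in SJ, each with 3 biological replicates. SJ is a synthetic juice at pH 3.3 with 200 g/l glucose, organic acids and ammonium sulphate, and without amino acids. FSJ is SJ to which ergosterol and oleic acid were added, each at 15 mg/l. All cultures came from a 24 h preculture in SJ, were inoculated at 1000000 cells/ml and were harvested at 60 h. Per the design text, both strains were used so that the influence of a single genetic background could be set aside, and the difference between them is the comparison given here.

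Yeast makes ergosterol and unsaturated fatty acids only with molecular oxygen, so a fermenting culture that has used its oxygen depends on lipids taken up from the juice. Added ergosterol and oleic acid are known to lower the expression of sterol synthesis genes, of sterol uptake genes and of the PAU family of small wall-associated proteins. Sulfur assimilation, which has a large share in what follows, carries sulfate through a permease into the cell and reduces it to sulfide for cysteine and methionine. Its genes are switched on by Met4 with its partners when sulfur amino acids are scarce.

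The values were one-colour signals on a linear scale with no unit. Trimmed means of the 12 arrays lay between 297.8 and 299.9, and the background, the 25th percentile of an array's yeast probe sets, was 16.6 to 21.7. Among tested probe sets the median on the log2 scale was 7.13 to 7.17 in EC1118 in FSJ, 7.08 to 7.10 in EC1118 in SJ, 6.90 to 6.92 in M25 in FSJ and 7.08 to 7.11 in M25 in SJ. EC1118 in FSJ replicate 2 stood apart, with a control spike of 432.2 against 999.7 to 1446 on the other arrays, and the counts of calls and the main list medians are also given without it. M25 in FSJ replicate 2 differed in its SPT15 control, with a ratio of the 3′ to the 5′ probe set of 5.64 against 1.28 to 2.87 on the other arrays, while its ACT1 ratio was 1.21 against 1.41 to 1.62. Their part in the results was not tested beyond the values given without them. Growth was not analysed here, so the medium and any difference in growth stage at 60 h cannot be told apart. A probe set's level set across the strains also carries any sequence difference between them, which was not analysed here. The lists of mating genes (26 measured) and of meiosis genes (12 measured) had no call in the difference with limma, where 0.187% of all genes were called. In these lists 3.85% and 16.7% had an unadjusted p under 0.05, against 16.3% of all genes. PRM7, which mating pheromone induces, is not on the mating list and was called in the difference.

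Few probe sets passed the test of the difference. With limma, 15 of 7349 probe sets (0.204%) passed an adjusted p of 0.05. The response was higher in EC1118 for 11 of them (0.15%) and lower for 4 (0.0544%). The share of higher calls was 73.3% as deposited, 15.0% with each array centred on its median (9 higher, 51 lower), 50.0% with quantile normalization (4 and 4) and 61.5% with low signals raised to the background (8 and 5). Without EC1118 in FSJ replicate 2, 3 were higher and 3 lower, and without M25 in FSJ replicate 2, 6 were higher and 3 lower. At an unadjusted p under 0.05 there were 1135 probe sets (15.4%), 875 higher and 260 lower. By gene, 10 of 5360 passed (0.187%). The response of PRM7, PEX19, YVC1, MMT1, YLF2 and RIT1 was higher in EC1118 (0.112%), and that of SUL1, VBA2, CDC20 and YCT1 was lower (0.0746%).

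The difference came with a call in M25 for all 15 probe sets. Lipids changed 136 of 7349 probe sets in EC1118 (1.85%), 49 higher (0.667%) and 87 lower (1.18%), and 643 in M25 (8.75%), 209 higher (2.84%) and 434 lower (5.91%). Without EC1118 in FSJ replicate 2 these were 28 and 68 in EC1118 and 228 and 460 in M25. Without M25 in FSJ replicate 2 they were 57 and 90 in EC1118 and 116 and 290 in M25. In 13 of them M25 alone had a called response, in 9 of these a fall and in 4 a rise with lipids. One probe set was called in both strains in opposite directions and one in both in the same direction, and none of the 15 was called in EC1118 alone. FSJ and SJ arrays did not overlap in EC1118 for 7 of the 15, where 18.5% of all tested probe sets had no overlap, and in M25 for all 15, where 34.7% had none. Of the 10 genes, none was among the 113 called in EC1118 (2.11% of genes), although 3 had an unadjusted p under 0.05 there, and 10 were among the 512 called in M25 (9.55%). The 15 probe sets and 10 genes were picked by a difference in which the same arrays enter. A large response in at least 1 strain follows from that choice, so these shares describe the calls and are no separate evidence.

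**Figure D1:**
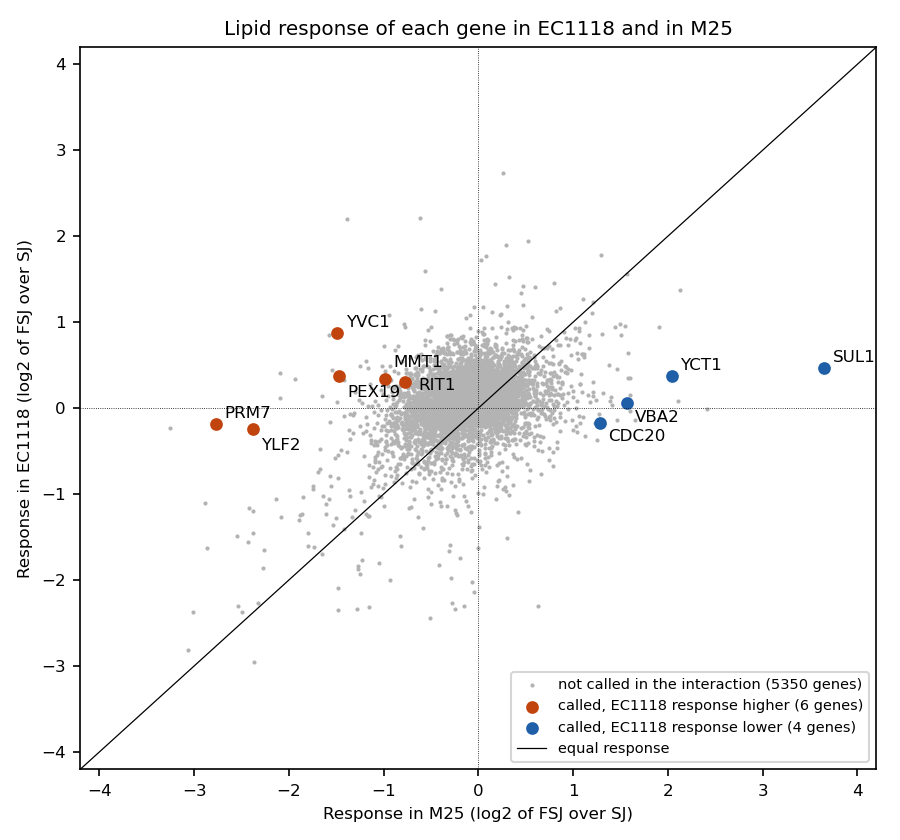
Response of each of 5360 genes, as log2 of FSJ over SJ, in M25 (horizontal axis) and in EC1118 (vertical axis), with 1 point per gene and a line where both responses are equal. The 10 coloured genes passed the test of the difference. Their M25 responses range in size from -0.77 for RIT1 and -0.98 for MMT1 to 3.65 for SUL1, while their EC1118 responses lie between -0.25 and 0.87.

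SUL1, a high-affinity sulfate permease of the plasma membrane, gave the smallest p of all probe sets tested. Its signals (7067_at) were 28.8, 21.4 and 20.9 in EC1118 in FSJ, against 19.5, 14.7 and 17.2 in EC1118 in SJ. In M25 they were 597, 723 and 706 in FSJ, against 57.6, 51.4 and 51.8 in SJ. The M25 arrays in FSJ were therefore far above all others, while the EC1118 arrays lay at the background, over it on 2 arrays in FSJ and on 1 in SJ. SUL1 rose 12.6-fold in M25 (log2 3.65, SE 0.17, limma adjusted p = 2.49e-07). In EC1118 its log2 change was 0.46 (SE 0.17, adjusted p = 0.231). The difference of the responses was -3.19 on the log2 scale (95% interval -3.72 to -2.66, adjusted p = 0.000173).

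VBA2, a transporter of basic amino acids into the vacuole, is the gene next to SUL1 in the R64 gene table. Its signals were 64, 50.2 and 53.3 in EC1118 in FSJ, against 52.9, 51.7 and 55.5 in EC1118 in SJ. M25 had 237.9, 268.4 and 223.3 in FSJ, against 92.3, 79.6 and 74.7 in SJ. The EC1118 groups overlapped and lay below every M25 array. VBA2 rose 2.96-fold in M25 (adjusted p = 7.23e-05), its log2 change in EC1118 was 0.06 (SE 0.15), and the difference was -1.51 (95% interval -1.96 to -1.06, limma adjusted p = 0.0145). PCA1, on the other side of SUL1 and known for metal transport, went the other way in M25, where it fell 1.56-fold (adjusted p = 0.00936). Its difference was 0.63 and did not pass (adjusted p = 0.173).

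YCT1, a cysteine transporter, was the other sulfur gene called. EC1118 arrays had 388.2, 270.6 and 421 in FSJ, against 362.2, 226.2 and 247.6 in SJ, and these groups overlapped. M25 arrays had 715.1, 903 and 880.6 in FSJ, against 195.8, 217.1 and 192.1 in SJ, with no overlap. YCT1 rose 4.11-fold in M25 (adjusted p = 0.000141), its log2 change in EC1118 was 0.37 (SE 0.20), and the difference was -1.67 (95% interval -2.30 to -1.03, limma adjusted p = 0.0486). CDC20, the activator of the anaphase-promoting complex, was the remaining gene with a lower difference. Its signals were 51.6, 49.3 and 61.2 in EC1118 in FSJ, against 73.2, 56.7 and 53.5 in EC1118 in SJ. In M25 they were 233.4, 258.8 and 263.1 in FSJ, against 113.8, 84.7 and 114 in SJ. The EC1118 groups overlapped and the M25 groups did not. CDC20 rose 2.44-fold in M25 (adjusted p = 0.00115), and the difference was -1.46 (95% interval -1.98 to -0.93, limma adjusted p = 0.0441). Of the 18 measured genes of the list of G2 phase and mitosis, CDC20 was the only one called, where 0.187% of all genes were called. The median difference of that list was 0.27 against 0.20 over all genes. Its highest value was 1.13, for the cyclin gene CLB2 (adjusted p = 0.353).

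PRM7, a membrane protein induced by mating pheromone, had the largest fall in M25 among the genes with a higher response in EC1118. With probe set 6513_at it gave 2467, 2566 and 2092 in EC1118 in FSJ, against 2207.5, 3047 and 2893.5 in EC1118 in SJ. M25 gave 58.2, 73.7 and 45.2 in FSJ, against 399.2, 445.9 and 347.3 in SJ. EC1118 was high and overlapping in both media, and M25 was low with lipids. PRM7 fell 6.83-fold in M25 (adjusted p = 5.14e-06), its log2 change in EC1118 was -0.19 (SE 0.19), and the difference was 2.59 (95% interval 2.00 to 3.17, limma adjusted p = 0.00216). A second PRM7 probe set, 6514_at, gave 1729, 1928 and 1637 in EC1118 in FSJ, against 1598, 2126 and 2417 in EC1118 in SJ. It gave 42.1, 38 and 22.3 in M25 in FSJ, against 141.9, 153.1 and 147.1 in M25 in SJ. The pattern was the same, with a difference of 1.97 (95% interval 1.28 to 2.65, adjusted p = 0.0441).

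BSC1, the gene next to PRM7 in the R64 table, had 499.9, 521.7 and 565.2 in EC1118 in FSJ, against 386.7, 704.3 and 884.2 in EC1118 in SJ. In M25 it had 17.7, 4.7 and 2.5 in FSJ, where all 3 arrays were under the background, against 60.3, 63.2 and 47.2 in SJ. BSC1 fell in M25 by at least 2.97-fold against the background (limma adjusted p = 0.00423). Its difference was 3.02 with an adjusted p of 0.15, so it did not pass, and 1.34 with low signals raised to the background. BSC1 and PCA1 were chosen as neighbours of called genes.

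PEX19, a chaperone for peroxisomal membrane proteins, had 55.1, 65.1 and 83.6 in EC1118 in FSJ, against 55.3, 58.7 and 43 in EC1118 in SJ. M25 had 20.8, 20.4 and 25.2 in FSJ, near the background, against 54.8, 54.8 and 75.9 in SJ. The fall in M25 was 2.77-fold (adjusted p = 0.00175), and the log2 change in EC1118 was 0.37 (SE 0.21, adjusted p = 0.426). The difference was 1.84 (95% interval 1.18 to 2.49, limma adjusted p = 0.0441). PEX19 is the gene meant in what follows. It was the one called member of 25 measured peroxisome assembly genes, where 0.187% of all genes were called. The median difference of that list was 0.03 against 0.20 over all genes. YVC1, a calcium-permeable channel of the vacuole, had 85.3, 79.3 and 64.6 in EC1118 in FSJ, against 35, 65.1 and 31.4 in EC1118 in SJ. In M25 it had 35.3, 25 and 32.6 in FSJ, against 70.6, 107 and 84.1 in SJ. YVC1 fell 2.81-fold in M25 (log2 -1.49, adjusted p = 0.00717), and its log2 change in EC1118 was 0.87 (SE 0.27, adjusted p = 0.155). The difference was 2.36 (95% interval 1.51 to 3.20, limma adjusted p = 0.0441). The other YVC1 probe sets gave differences of 0.08 and 0.48 and did not pass (adjusted p = 0.945 and 0.531), so the probe sets of this gene disagree, and their mean gave 0.97 (adjusted p = 0.15).

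MMT1, a metal transporter of mitochondria, had 98.9, 134.2 and 112.6 in EC1118 in FSJ, against 92, 98.5 and 82.2 in EC1118 in SJ. M25 had 602.2, 508.2 and 714.6 in FSJ, against 1199, 1208 and 1169 in SJ. The fall in M25 was 1.98-fold (adjusted p = 0.00307), with a difference of 1.32 (95% interval 0.84 to 1.80, limma adjusted p = 0.0441). RIT1, which modifies the initiator methionine tRNA, had 63.8, 67.6 and 66.7 in EC1118 in FSJ, against 52.4, 55.7 and 52.2 in EC1118 in SJ. It had 34.9, 33.7 and 36.1 in M25 in FSJ, against 61.2, 56.3 and 61.1 in M25 in SJ. RIT1 fell 1.71-fold in M25 (adjusted p = 0.00439), and its difference was 1.08 (95% interval 0.67 to 1.48, limma adjusted p = 0.0441). In neither strain did the FSJ and SJ arrays of these genes overlap, and the EC1118 values were 0.33 for MMT1 and 0.31 for RIT1 on the log2 scale, which did not pass.

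YLF2 rests on signals near or under the background. It had 33.3, 30.3 and 31.8 in EC1118 in FSJ, against 40.4, 34 and 39 in EC1118 in SJ. In M25 it had 3.4, 5.1 and 3.4 in FSJ, under the background on all 3 arrays, against 16.2, 22.3 and 23.1 in SJ. The difference was 2.14 (limma adjusted p = 0.0441), but it was -0.05 with low signals raised to the background (adjusted p = 0.93), and the fall in M25 was at least 1.07-fold. One unnamed probe set, 9479_at, was of the same kind. It had 14.7, 14.2 and 20.9 in EC1118 in FSJ, against 22.3, 22.9 and 24.3 in EC1118 in SJ, and 2.1, 3 and 1 in M25 in FSJ, against 34.4, 27.5 and 21.2 in M25 in SJ. Both FSJ groups were under the background on all 3 arrays, so the fall in M25 was at least 1.43-fold, the change in EC1118 did not pass (log2 -0.50, adjusted p = 0.582), and the difference of 3.38 (adjusted p = 0.0441) was 0.33 with low signals raised (adjusted p = 0.532).

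The remaining unnamed probe sets were those called in both strains. Probe set 3328_at had 78.9, 63 and 84.8 in EC1118 in FSJ, against 131.4, 124.8 and 132.3 in EC1118 in SJ. M25 had 40.6, 40.6 and 44.7 in FSJ, against 189.6, 210.8 and 210.8 in SJ. It fell 1.73-fold in EC1118 (adjusted p = 0.0117) and 4.85-fold in M25 (adjusted p = 3.05e-06), with a difference of 1.49 (95% interval 1.06 to 1.92, limma adjusted p = 0.0145). Probe set 8066_at had 21.9, 17.2 and 17.9 in EC1118 in FSJ, against 8.2, 8.9 and 7.9 in EC1118 in SJ, where all 3 were under the background. M25 had 92.6, 52.7 and 71.8 in FSJ, against 186.9, 150.5 and 136.1 in SJ. It fell 2.22-fold in M25 (adjusted p = 0.00938) and was called higher with lipids in EC1118 (adjusted p = 0.0178), where the signals allow no fold over the background. The difference was 2.33 (adjusted p = 0.0145), and 1.25 with low signals raised (adjusted p = 0.126).

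DAL5, an allantoate permease, has 3 tested probe sets that disagree. Probe set 3032_at, the one called, had 79.5, 96.4 and 101.1 in EC1118 in FSJ, against 73.2, 81.6 and 73.8 in EC1118 in SJ, and 48.6, 43.4 and 54.6 in M25 in FSJ, against 101.4, 105.3 and 133.8 in M25 in SJ. It fell 2.31-fold in M25 (adjusted p = 0.00114), with a difference of 1.48 (limma adjusted p = 0.0376). The probe set that stands for the gene, 10854_at, had 490.6, 698.6 and 397.5 in EC1118 in FSJ, against 279.7, 233.1 and 291.3 in EC1118 in SJ. It had 2206, 1937 and 1974.5 in M25 in FSJ, against 531.5, 554.3 and 547.3 in M25 in SJ. DAL5 by this probe set rose in both strains, 1.93-fold in EC1118 (adjusted p = 0.0173) and 3.74-fold in M25 (adjusted p = 7.59e-05), and its difference of -0.96 did not pass (95% interval -1.51 to -0.41, adjusted p = 0.154). The other, 3033_s_at, had -0.93 (adjusted p = 0.261). The direction of the difference for DAL5 is therefore uncertain.

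**Figure D2:**
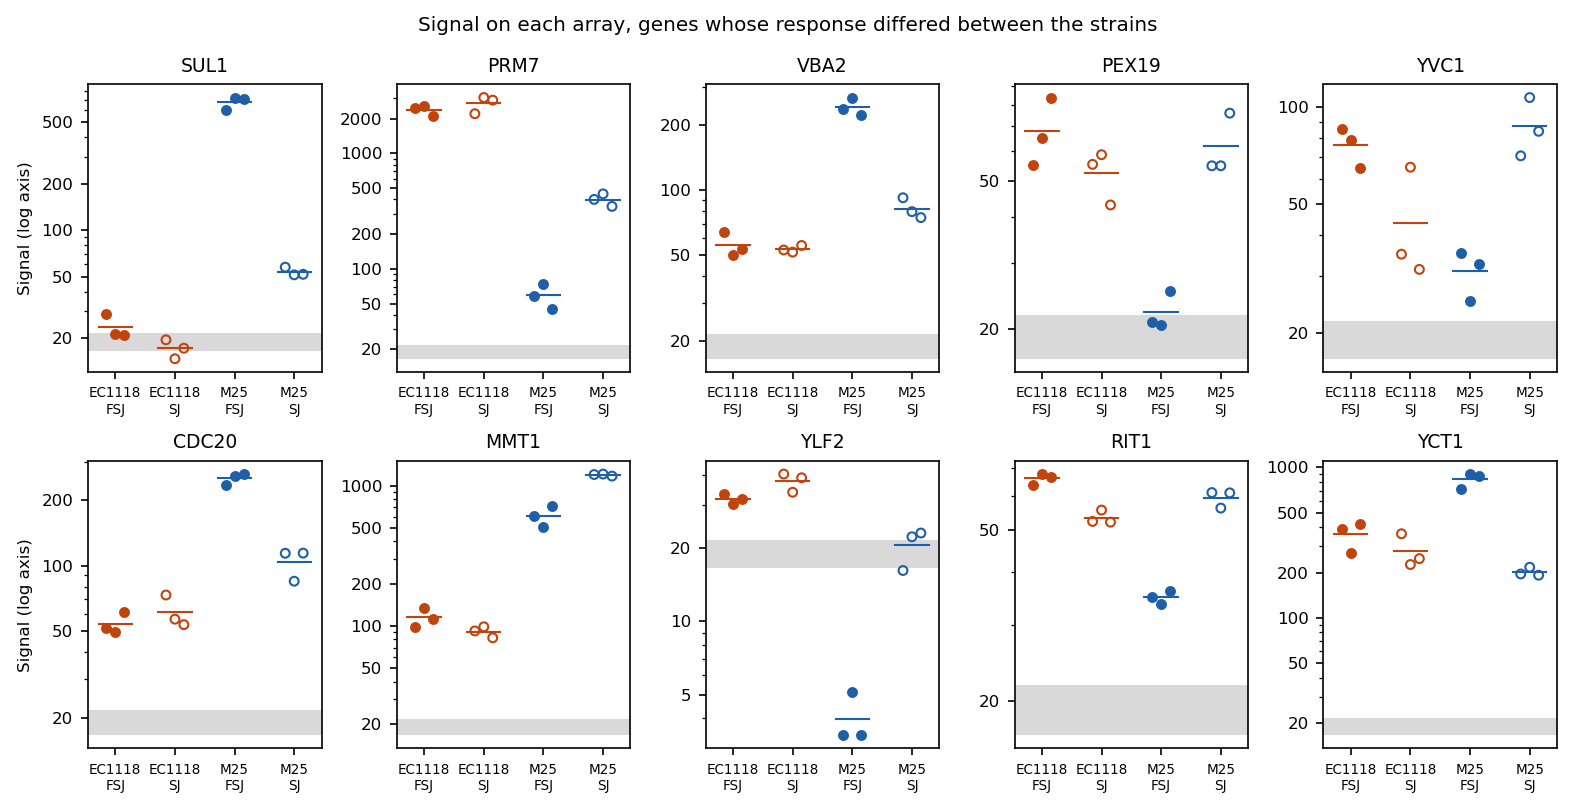
Signal on each array (log axis, no unit) of the 10 genes called in the difference, for EC1118 in FSJ, EC1118 in SJ, M25 in FSJ and M25 in SJ, with filled points for FSJ, open points for SJ, a bar at each group mean and a grey band over the range of the array backgrounds (16.6 to 21.7). The FSJ and SJ points separate in M25 for every gene, and for SUL1 all EC1118 points lie in or near the grey band.

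The calls for SUL1 and PRM7 held without any single array. SUL1 (adjusted p = 0.000158 to 0.00179) and PRM7 by 6513_at (0.000999 to 0.012) were called in all 12 fits that left out 1 array. VBA2 and 3328_at were lost without EC1118 in SJ replicate 1 (limma adjusted p = 0.056 each) or 3 (0.0741 each), and without M25 in SJ replicate 2 (0.0687 each) or 3 (0.0755 each). Probe set 8066_at was lost without EC1118 in SJ replicate 1 (0.056) or 3 (0.0741), and without M25 in SJ replicate 1 (0.0728), 2 (0.0687) or 3 (0.0684). DAL5 by 3032_at, PEX19 and MMT1 were kept only without EC1118 in FSJ replicate 1 or M25 in FSJ replicate 3, PRM7 by 6514_at only without M25 in FSJ replicate 1 or 3, and 9479_at only without M25 in FSJ replicate 2 or 3. YVC1 was kept only without EC1118 in SJ replicate 2 (0.00938) and YLF2 only without M25 in FSJ replicate 2 (0.0341). CDC20, RIT1 and YCT1 were called in none of the 12, with adjusted p = 0.0562 to 0.171. The direction was the same in all 12 fits for each of the 15. The size moved least for RIT1 (1.05 to 1.12) and most for 9479_at (2.93 to 3.73). It lay between -1.80 and -1.46 for YCT1 and between 2.16 and 2.68 for YVC1. The scaling also ended calls. With quantile normalization PEX19 (limma adjusted p = 0.0973), YVC1 (0.0914), MMT1 (0.0914), RIT1 (0.16), YLF2 (0.192), DAL5 by 3032_at (0.0929) and 9479_at (0.0623) no longer passed, and with arrays centred on their medians MMT1 (0.0527) and RIT1 (0.0561) did not. SUL1, VBA2, CDC20, YCT1, both PRM7 probe sets, 3328_at and 8066_at passed under both.

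Most genes that responded in 1 strain had the same sign in the other. Over all genes the median response as deposited was 0.078 in EC1118 and -0.112 in M25. Signs in the other strain were therefore not evenly split to begin with. Of the 71 genes lower with lipids in EC1118 (1.32% of genes), 70 had a negative change in M25, with medians of -1.02 in EC1118 and -1.16 in M25, and 55 were also called there. Of the 42 genes higher in EC1118 (0.784%), 34 had a positive change in M25, with medians of 0.842 in EC1118 and 0.467 in M25, and 13 were called in both. The 351 genes lower in M25 (6.55%) had medians of -0.246 in EC1118 and -0.818 in M25, and 275 had a negative change in EC1118. The 161 genes higher in M25 (3%) had medians of 0.256 in EC1118 and 0.736 in M25, with 144 positive in EC1118. Shared calls were thus 77.5% of the lower and 31.0% of the higher calls in EC1118, and 15.7% and 8.07% of those in M25. No gene was called in both strains in opposite directions with limma, and 31 were opposite at an unadjusted p under 0.05 in both.

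The responses of EC1118 and M25 had a Pearson correlation of 0.393 and a Spearman correlation of 0.311 over 5360 genes. The responses share no array, but they share probe sets and scaling, and genes are not independent replicates. The SD of the log2 response over genes was 0.389 in EC1118 and 0.456 in M25, and 129 and 214 genes had a change beyond 1 on that scale. The spread between replicates, as the median SD of log2 signal, was 0.245 in EC1118 in FSJ, 0.185 in EC1118 in SJ, 0.21 in M25 in FSJ and 0.159 in M25 in SJ. The median SE of the difference was 0.285, and the smallest difference called was 1.08.

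The zero of the difference depends on the scaling. Over all 5360 genes the median was 0.199 as deposited, -0.049 with arrays centred on their medians, 0.055 with quantile normalization and 0.191 with low signals raised. With genes in 3 groups of like size by mean signal, it was 0.30 in the lowest, 0.26 in the middle and 0.06 in the highest as deposited. Gene lists are therefore given by their median relative to that of all genes on the same scale. Of 48 lists with 1154 measured genes, 4 genes were called in the difference, where 10 of all 5360 genes (0.187%) were called. The 45 lists without a call say little, since so few genes were called at all. The medians of 37 lists lay below that of all genes, and the relative medians spanned -0.75 to 0.20. Centring moves the difference of every gene by the same amount and so leaves relative medians as they are. With quantile normalization 3 relative medians and 12 of the list medians themselves changed sign.

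**Figure D3:**
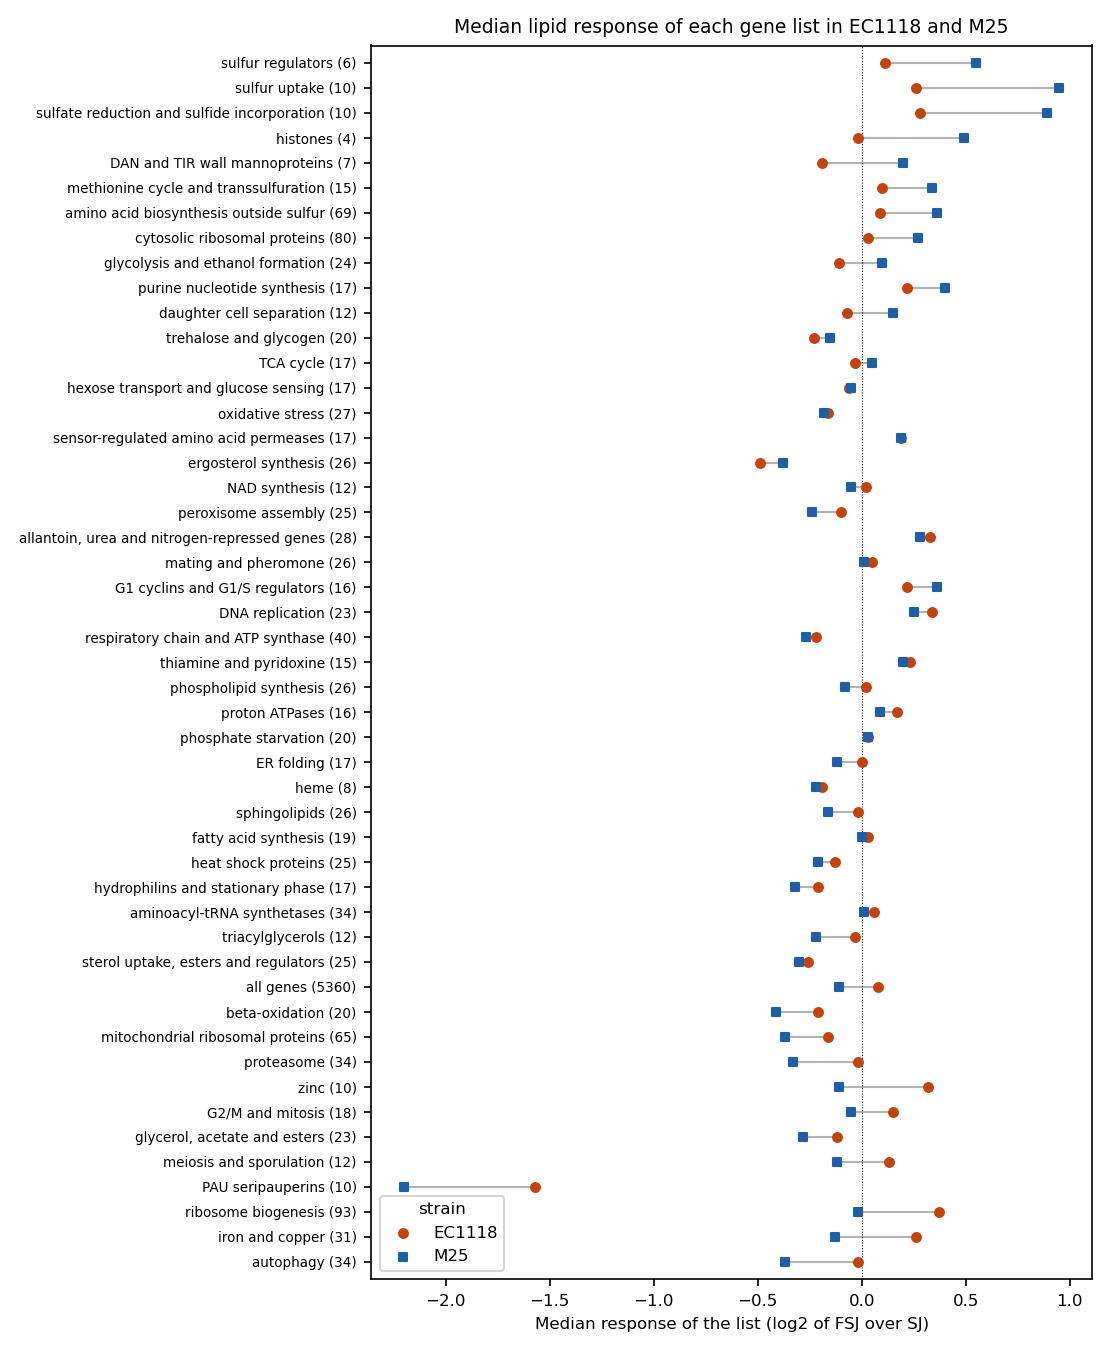
Median response of each of 48 gene lists and of all genes, as log2 of FSJ over SJ, in EC1118 (circles) and M25 (squares), with the number of measured genes in brackets and lists in order of the difference. The sulfur lists at the top are further right in M25 than in EC1118, and the PAU list lies at -1.57 in EC1118 and -2.20 in M25.

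The sulfur genes as a group responded more in M25. Of 41 measured genes in 4 lists, none was called in EC1118 with limma (8 higher and 2 lower at an unadjusted p under 0.05), and 20 rose and 1 fell in M25 (27 and 1 unadjusted). Over all genes 0.784% rose and 1.32% fell in EC1118, and 3% rose and 6.55% fell in M25. Unadjusted, 632 of 5360 genes were higher and 311 lower in EC1118, and 464 and 1015 in M25. The median response of the 41 was 0.15 in EC1118 and 0.61 in M25, against 0.08 and -0.11 over all genes. The difference was called for SUL1 and YCT1, where 0.187% of all genes were called. At an unadjusted p under 0.05, 15 had a lower and 2 a higher difference, a threshold that 16.3% of all genes reached either way. The median difference was -0.43, or -0.63 relative to all genes, -0.46 with quantile normalization and -0.63 without EC1118 in FSJ replicate 2. In all, 39 of the 41 lay below the median of all genes. These lists were among those that earlier results of the same arrays had shown to move, so its direction is no independent evidence.

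Among the sulfur transporters, 6 of 10 rose in M25 and 1 fell, where 3% of all genes rose and 6.55% fell. SUL2, the second sulfate permease, had 1889, 1638 and 1419 in EC1118 in FSJ, against 1907, 1085 and 1307 in EC1118 in SJ. It had 3748, 3671 and 3905 in M25 in FSJ, against 2145, 2014 and 2097 in M25 in SJ. SUL2 rose 1.81-fold in M25 (limma adjusted p = 0.0111), its log2 change in EC1118 was 0.23, and its difference of -0.62 did not pass (95% interval -1.15 to -0.09). The permeases MUP3 for methionine and MMP1 for S-methylmethionine rose 2.71-fold and 2.64-fold in M25 (adjusted p = 0.0127 and 0.0351), with differences of -0.50 and -1.27 that did not pass. MUP1, the high-affinity methionine permease, went the other way. It had 119.2, 71.3 and 118.4 in EC1118 in FSJ, against 126.8, 144.9 and 151.5 in EC1118 in SJ, and 51.1, 39 and 42.2 in M25 in FSJ, against 98.1, 148 and 119.4 in M25 in SJ. MUP1 fell 2.74-fold in M25 (adjusted p = 0.00253), with a difference of 0.97 that did not pass (95% interval 0.28 to 1.65, adjusted p = 0.228).

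In the reduction of sulfate to sulfide and its incorporation, 7 of 10 genes rose in M25 and none in EC1118. Of all genes 3% rose in M25 and 0.784% in EC1118. All 10 of the list had a negative difference, between -1.20 and -0.16. None passed with limma, and 5 were lower at an unadjusted p under 0.05, as were 158 of all 5360 genes. MET1, which makes the siroheme of sulfite reductase, had 873.5, 883.8 and 664.4 in EC1118 in FSJ, against 889, 495.3 and 622.7 in EC1118 in SJ. It had 2826, 3142 and 2502 in M25 in FSJ, against 1494, 1070 and 1118 in M25 in SJ. MET1 rose 2.32-fold in M25 (adjusted p = 0.00517), and its difference was -0.91 (95% interval -1.56 to -0.27, adjusted p = 0.229). MET3, the ATP sulfurylase, rose 1.83-fold in M25 (adjusted p = 0.0136) with a difference of -0.43 (95% interval -1.0 to 0.14). MET17, which joins sulfide to the carbon chain of homocysteine, rose 1.30-fold in M25 (adjusted p = 0.0271), with a difference of -0.30 (95% interval -0.58 to -0.01) as deposited and -0.08 with quantile normalization.

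Downstream, 4 of 15 genes of the methionine cycle and of transsulfuration rose in M25, where 3% of all genes rose. STR3, a cystathionine beta-lyase, had 554.6, 455 and 426.7 in EC1118 in FSJ, against 648.2, 351.2 and 401 in EC1118 in SJ. It had 2925, 2780.3 and 2600.5 in M25 in FSJ, against 1106, 1032 and 1027 in M25 in SJ. EC1118 arrays overlapped and M25 arrays did not. STR3 rose 2.62-fold in M25 (limma adjusted p = 0.00142), and its difference of -1.31 (95% interval -1.91 to -0.72) did not pass as deposited (adjusted p = 0.107) and passed with arrays centred on their medians (0.0404) but not with quantile normalization (-1.20, adjusted p = 0.16). SAH1, which hydrolyses S-adenosylhomocysteine, had a difference of -0.01 with a narrow interval of -0.24 to 0.22.

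Of the 6 regulators of sulfur assimilation, 3 rose in M25, where 3% of all genes rose. MET28, a partner of Met4, had 500, 455.8 and 207.7 in EC1118 in FSJ, against 461.1, 262.8 and 359.2 in EC1118 in SJ. It had 1795, 1989.5 and 1817 in M25 in FSJ, against 681.1, 679.6 and 751.1 in M25 in SJ. MET28 rose 2.65-fold in M25 (limma adjusted p = 0.0121), with a difference of -1.37 (95% interval -2.26 to -0.48, adjusted p = 0.193). MET32, a DNA-binding partner, rose 2.99-fold in M25 (adjusted p = 0.00125), with a difference of -0.94 (95% interval -1.59 to -0.28, adjusted p = 0.227). MET30, the ubiquitin ligase subunit that restrains Met4, rose 1.82-fold in M25 (adjusted p = 0.0101), and its difference was -0.92 (95% interval -1.45 to -0.39, adjusted p = 0.154). MET4 itself had a log2 change of 0.05 in EC1118 and 0.24 in M25, neither called, and MET31 had a difference of 1.05 that did not pass.

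**Figure D4:**
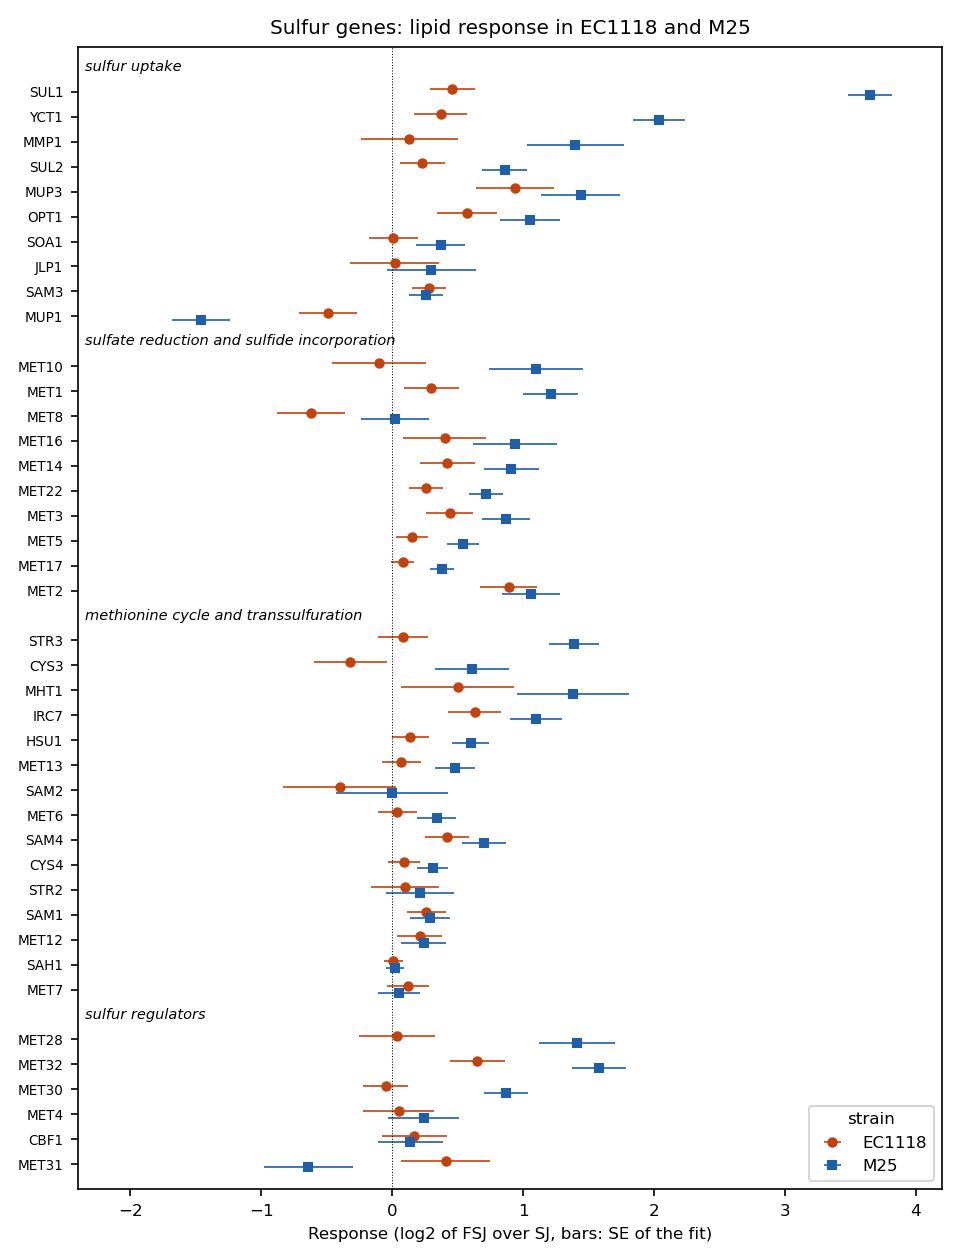
Response of the 41 measured sulfur genes, as log2 of FSJ over SJ, in EC1118 (circles) and M25 (squares), with bars for the SE of the fit, grouped by role. SUL1 stands furthest right in M25, at 3.65, and MUP1 lies left of zero in both strains.

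Other biosynthetic lists lay on the same side without a called gene. Of all genes 3% rose in M25 and 0.784% in EC1118 with limma. In EC1118, 632 of 5360 genes were higher and 311 lower at an unadjusted p under 0.05. Of 69 genes of amino acid biosynthesis outside the sulfur pathway, 14 rose in M25 and none in EC1118 with limma (4 higher and 1 lower unadjusted in EC1118). Their median response was 0.09 in EC1118 and 0.36 in M25, and their median difference relative to all genes was -0.45, or -0.21 with quantile normalization. None passed in the difference, and 18 were lower and 1 higher at an unadjusted p under 0.05, against 158 and 715 of all 5360 genes. Purine nucleotide synthesis had 6 of 17 genes rising in M25, none in EC1118 (5 higher and 1 lower unadjusted), and a relative median of -0.41, or -0.21 with quantile normalization. For 80 cytosolic ribosomal protein genes 14 rose in M25, none was called in EC1118 (9 higher unadjusted), and the relative median was -0.43 as deposited and -0.08 with quantile normalization. For 24 genes of glycolysis and ethanol formation those values were -0.42 and -0.05. The distance of ribosomal protein and glycolysis genes from all genes thus depends on the scaling.

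A few lists lay above the median of all genes. The 93 ribosome biogenesis genes had a median response of 0.37 in EC1118 and -0.02 in M25, with 1 rising in EC1118, RRP6 of the nuclear exosome (log2 0.85, limma adjusted p = 0.0366), and none called in M25. At an unadjusted p under 0.05, 35 were higher in EC1118 and 6 in M25, and 12 were higher in the difference, none of which passed. Over all 5360 genes these counts were 632, 464 and 715. The 12 were 12.9% of the list, where 16.3% of all genes reached that threshold either way. The relative median of the list was 0.19, but 0.07 without EC1118 in FSJ replicate 2. Of all genes 1.32% fell in EC1118, and 6.55% fell and 3% rose in M25. Iron and copper genes (31) had medians of 0.26 in EC1118 and -0.13 in M25, with 1 fall in EC1118 and 5 falls and 1 rise in M25. Among them TIS11, which degrades transcripts of iron-using proteins, had a difference of 1.75, and the copper transporter CTR1 had 1.26, neither passing (adjusted p = 0.107 each), and both fell in M25 (adjusted p = 0.00704 and 0.00151). The proteasome list (34) had 5 falls in M25 and none in EC1118 (1 lower and 1 higher unadjusted), with medians of -0.02 in EC1118 and -0.33 in M25 and a relative median of 0.06. RPN8, a lid subunit, had the smallest adjusted p of that list (1.14, adjusted p = 0.075).

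Some of the known targets of lipid supply were called in both strains. Of all genes 1.32% fell in EC1118 and 6.55% in M25, and 158 of 5360 had a lower difference at an unadjusted p under 0.05. Of 26 ergosterol synthesis genes 13 fell in each strain, with medians of -0.49 in EC1118 and -0.38 in M25, and none was called in the difference with limma (2 lower at an unadjusted p under 0.05). Their median difference was 0.02 against 0.20 over all genes, with 22 of the 26 below the median of all genes. Relative to all genes it was -0.18 as deposited and -0.02 with quantile normalization, so it depends on the scaling. HMG1, an HMG-CoA reductase, had 404, 376 and 514.6 in EC1118 in FSJ, against 2400.3, 1735 and 1451 in EC1118 in SJ, and 417, 432.2 and 383.9 in M25 in FSJ, against 1462, 1037 and 1000.3 in M25 in SJ. It fell 4.26-fold in EC1118 (adjusted p = 0.000224) and 2.80-fold in M25 (adjusted p = 0.00125). The difference of -0.61 did not pass (95% interval -1.23 to 0.01). For ERG11, the sterol demethylase, the difference was -0.12 (95% interval -0.44 to 0.19), and for ERG3, the C-5 desaturase, -0.15 (95% interval -0.50 to 0.21). ERG11 passed in EC1118 (fell 1.37-fold, adjusted p = 0.0441) and not in M25 (1.26-fold lower, adjusted p = 0.0631), while the difference itself did not pass.

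UPC2, the transcription factor that senses ergosterol, had 109.5, 146.5 and 102.4 in EC1118 in FSJ, against 173.1, 174.6 and 183 in EC1118 in SJ. It had 183.3, 291.5 and 233.2 in M25 in FSJ, against 647.6, 663 and 673.8 in M25 in SJ. The FSJ arrays were below the SJ arrays in both strains. UPC2 fell 2.85-fold in M25 (limma adjusted p = 0.000497), its change in EC1118 did not pass (1.5-fold lower, adjusted p = 0.143), and the difference was 0.93 (95% interval 0.38 to 1.48, adjusted p = 0.165). AUS1, a sterol importer, fell 2.12-fold in M25 (adjusted p = 0.00309) and was 1.67-fold lower in EC1118 (adjusted p = 0.0526), with a difference of 0.34 (95% interval -0.19 to 0.87). HES1, an oxysterol-binding protein, fell in both strains, with log2 changes of -1.55 in EC1118 and -2.43 in M25 (adjusted p = 0.00075 and 7.14e-06), with a difference of 0.87 that did not pass. In the list of sterol uptake, esters and regulators 3 of 25 fell in EC1118 and 8 in M25, with a median difference of 0.17 against 0.20 over all genes. Of all genes 1.32% fell in EC1118 and 6.55% in M25. OLE1, the fatty acid desaturase, was called in neither strain (log2 -0.20 in EC1118, adjusted p = 0.347, and 0.22 in M25, adjusted p = 0.171), and its difference of -0.42 did not pass (95% interval -0.71 to -0.12, adjusted p = 0.228), and was -0.22 with quantile normalization.

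The PAU genes had the lowest median response of the 48 lists in both strains. Of 24 family members asked for, 10 were measured by a probe set with 1 symbol, and probes in this family can bind transcripts of near-identical copies, so single members are uncertain. All 10 fell in both strains, where 1.32% of all genes fell in EC1118 and 6.55% in M25. The medians of the 10 were -1.57 in EC1118 and -2.20 in M25. None passed in the difference with limma (4 higher and 1 lower at an unadjusted p under 0.05), with a range from -1.15 for PAU7 to 1.08 for PAU19. PAU17 had 900.8, 1024 and 1252 in EC1118 in FSJ, against 5451, 5757.5 and 5158 in EC1118 in SJ, and 501.7, 468.9 and 589.9 in M25 in FSJ, against 4384, 4037 and 4156 in M25 in SJ. It fell 5.20-fold in EC1118 (adjusted p = 1.39e-06) and 8.09-fold in M25 (adjusted p = 1.5e-07), and its difference was 0.64 (95% interval 0.25 to 1.03, adjusted p = 0.177). The anaerobic wall protein genes DAN1 and TIR1 were called in neither strain, with differences of -0.25 (95% interval -0.48 to -0.03) and -0.30 (95% interval -0.74 to 0.15) as deposited, and of 0.02 and -0.03 with quantile normalization.

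Other genes with a called response to lipids also differed little or with wide intervals. SUE1, needed for the breakdown of unstable cytochrome c, fell 7.01-fold in EC1118 (adjusted p = 0.00547) and 8.38-fold in M25 (adjusted p = 0.00154), and its difference was 0.26 with a 95% interval of -1.09 to 1.60. CYC1, which encodes cytochrome c, fell 3.67-fold in EC1118 and 2.41-fold in M25 (limma adjusted p = 0.00078 and 0.00423), with a difference of -0.60 (95% interval -1.26 to 0.05). The general amino acid permease GAP1 rose 1.73-fold in EC1118 and 2.03-fold in M25 (adjusted p = 0.0323 and 0.00365), with a difference of -0.23 (95% interval -0.74 to 0.28). The ammonium permease MEP2 rose 1.48-fold in EC1118 and 1.45-fold in M25 (adjusted p = 0.0142 and 0.00884), and its difference of 0.03 had a 95% interval of -0.29 to 0.35.

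The remaining genes of a panel of 25, named whatever their call, had no called difference as deposited. The G1 cyclin genes CLN1 (-0.10, 95% interval -0.92 to 0.73) and PCL1 (-0.01, 95% interval -1.22 to 1.19) had wide intervals. The same held for the heat shock genes HSP12 (0.27, 95% interval -1.54 to 2.08) and HSP26 (-0.80, 95% interval -1.89 to 0.29), whose EC1118 arrays in FSJ spread from 64.1 to 557.2 and from 78.8 to 285. GCN4, the activator of amino acid synthesis genes, had -0.23 (95% interval -0.51 to 0.06), and INO1, which makes inositol phosphate, had 0.06 (95% interval -0.20 to 0.32). HXT1, a low-affinity glucose transporter, had -0.40 (95% interval -0.68 to -0.11, limma adjusted p = 0.229) as deposited, -0.65 with arrays centred on their medians (adjusted p = 0.0494) and -0.10 with quantile normalization (adjusted p = 0.791). With quantile normalization the differences of ERG11, ERG3 and GCN4 also turned sign, to 0.02, 0.03 and 0.01, and with centring those of MEP2 and INO1 did, to -0.22 and -0.19, none of them passing.

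**Figure D5:**
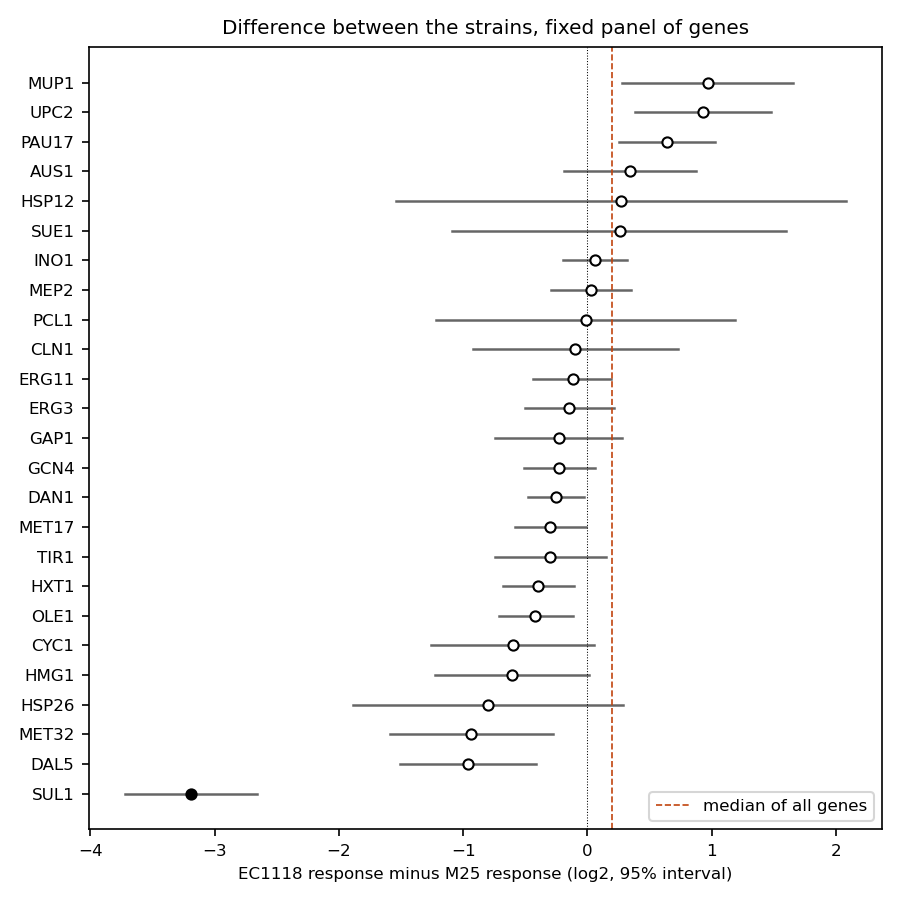
Difference of the responses (EC1118 minus M25, log2) with its 95% interval for the 25 panel genes, with a filled point where the difference passed and a dashed line at the median of all genes. SUL1, at -3.19, is the one filled point, and the intervals of HSP12, SUE1 and PCL1 are the widest.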

How the data were processed

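The authors deposited a linear intensity for each probe set of each array, computed with MAS5 according to the submitters' processing notes. Neither the version nor the scaling target is given in the sources used here, and detection calls were not used. The samples were grouped by the strain and medium in their labels, with 12 arrays, 1 per biological replicate. The number of arrays limits the precision.

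From 9335 probe sets 60 controls were removed. Of the rest, 6504 had 1 symbol, 328 several and 2443 none. A probe set was tested if over the background on at least 3 arrays, and a gene was read from its tested probe set with the highest mean. The log2 was taken with a floor of 1 on the signal. Means of the 4 groups were fitted with limma 3.58.1 (R 4.3.3, intensity trend), and p-values, two-sided, were adjusted by Benjamini-Hochberg over 7349 probe sets at a threshold of 0.05. The fit was tested on simulated data with differences added to 200 probe sets. It recovered 38.4% of differences of 1 on the log2 scale and 92.2% of those of 2, with 5.06% false calls. The simulated noise was independent and of equal size in all groups. The 200 altered probe sets also allow a milder p cutoff than the 15 calls here. Recovery on the real arrays can thus be lower, and the share of false calls can differ. A difference near 1 that did not pass is therefore not shown to be absent. A fold against a group under the background on all 3 arrays was computed against the background and is written as at least that size. Neighbouring genes came from the R64 table, and no coordinates or sequences were used.

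Named genes were up to 12 called genes per direction by size with a group over the background on all 3 arrays, up to 4 called members per list, up to 6 genes called in both strains with opposite signs, and the panel of 25. The members, lists and panel were chosen with earlier results of these data known. Probe sets without a symbol, other probe sets of a called gene, neighbours and further list members were named after their values were seen. Alternatives were quantile normalization, median centring, no filter, low signals raised to the background, a pseudocount of 16, a filter on all arrays, the replicate block, no intensity trend, array weights, averaging the probe sets of each gene, and leaving out each array.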

Additional observations from a re-analysis of the deposited data

Results flagged for a closer look

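The responses of EC1118 and M25 under the same contrast, FSJ against SJ, differed by the test of the difference itself in 15 probe sets, which are given here as EC1118 minus M25 on the log2 scale. The response was lower in EC1118 for SUL1 (-3.19), YCT1 (-1.67), VBA2 (-1.51) and CDC20 (-1.46). It was higher in EC1118 for PRM7 by 6513_at (2.59) and by 6514_at (1.97), YVC1 (2.36), YLF2 (2.14), PEX19 (1.84), MMT1 (1.32) and RIT1 (1.08). The same held for DAL5 by 3032_at (1.48) and the unnamed probe sets 9479_at (3.38), 8066_at (2.33) and 3328_at (1.49). For YLF2, 9479_at and 8066_at at least 1 group had all 3 arrays under the background, which held for 494 of the 7349 probe sets tested. The test for an outlying value within a group needs at least 4 samples and was not run on groups of 3.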

How the results depend on the processing

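Of the 15 calls in the difference, 8 were kept with quantile normalization, 13 with median centring, 10 with log2(signal + 16), 12 with signals raised to the background, 9 without a filter, 12 without an intensity trend, 15 with array weights and 10 of the 10 that passed the filter on all arrays. The 1 reversal was YLF2, at -0.05 with signals raised to the background, where its M25 arrays in FSJ take the background value. Probe sets with a higher response in EC1118 were 11 in the main setting, 4 with quantile normalization and 7 with log2(signal + 16). They were 7 with the filter on all arrays, 14 with array weights and 1 to 11 when 1 array was left out. Lower ones were 4, 51 with median centring, and 1 to 6 when 1 array was left out. In M25, 209 were higher and 434 lower, 633 and 240 with median centring, 340 and 695 with array weights, 181 and 237 with quantile normalization, and 83 to 278 and 202 to 539 when 1 array was left out. In EC1118, 49 were higher and 87 lower, and 28 to 62 and 64 to 115 when 1 array was left out.

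Same-numbered arrays showed little correlation: over 18 such pairs the deviations from group means had correlations of -0.16 to 0.137, 2 of them over 0.1. Of 12 arrays, 3 correlated best with their own number. With 3 arrays per group this cannot settle whether the replicate numbers pair the samples. With the replicate block 3 probe sets were higher and 1 lower in the difference, and 4 of the 15 calls were kept. Signals near the background limit what the arrays show for YLF2, PEX19, SUL1 in EC1118 and the unnamed probe sets 8066_at and 9479_at.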
